A study of Arabidopsis thaliana with 9 samples.

Results

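Of the 9 libraries of the series, the 3 titled rep3 were set against the 6 titled rep1 or rep2. Membership followed the number in the sample title and used no measured value. The comparison itself was chosen with earlier results of these data known. The rep3 set held 1 library each of WT, atrzf1 and pca31, and the other set held 2 of each genotype, so that genotype was balanced and entered the fit as a block. WT was the Col-0 accession of Arabidopsis thaliana, a small flowering plant; atrzf1 bears the name of AtRZF1, which encodes a RING finger ubiquitin ligase; pca31 is described as a suppressor of atrzf1. All libraries came from 2-week-old seedlings on MS medium, a standard plant growth medium, with no stress treatment named. RNA was extracted with TRIzol, and 500 ng per sample entered a QuantSeq preparation, which sequences the 3′ ends of polyadenylated transcripts. The labels give no allele, no hour of harvest and no dissection of organs. They do not say whether a number marks a sowing, a harvest or an extraction, nor whether the libraries came from separate cultures. The p-values speak of variation from library to library alone, which may be technical. The fit took all 9 libraries as independent samples. If libraries of the same number share a sowing, harvest or extraction, rep3 is 1 such unit set against 2. The p-values may then be too small and the calls too many. Whether the libraries were independent was not tested.

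The question put to the counts was what the rep3 samples contained more or less of, in particular transcripts of roots, of nutrient uptake, of photosynthesis and of flowers. In an Arabidopsis root the epidermis bears root hairs, which take up water and ions, and the endodermis seals its walls with a lignin belt, the Casparian strip, and later with suberin. Transporters of the epidermis and stele move phosphate, nitrate, ammonium and metals into the plant and up to the shoot. The nuclear genes for antenna proteins, photosystem subunits and Calvin cycle enzymes are used mainly in green tissue, and the genes for the pollen coat are used in the tapetum, the nurse tissue of the anther.

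The rep3 libraries held 22478803 to 24090783 counts, and the rep1 and rep2 libraries 27712644 to 33073605. Between 22156 and 22427 genes had a count in a rep3 library, and between 21417 and 22836 in the others. Spearman's rho over genes was 0.969 to 0.982 between libraries of the same number. It was 0.926 to 0.952 between a rep3 library and a rep1 or rep2 library, and 0.960 to 0.975 between rep1 and rep2. The range within a number thus lay above that between rep1 and rep2 at both ends, with some overlap. Levels are given as counts scaled to a common library size (CPM), with factors from TMM, a method that takes most genes to be equal between libraries. The TMM factors were 1.132, 1.172 and 1.25 in rep3 of WT, atrzf1 and pca31, against 0.819 to 1.047 in the others. AtRZF1 (AT3G56580) followed the genotype labels in both sets: rep3 had 25.4 CPM in WT and 2.11 and 2.52 CPM in the mutants, while rep1 and rep2 had 24 and 31 CPM in WT and 1.16 to 4.6 CPM in the mutants.

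Many transcripts of root cells and of phosphate uptake were higher in the rep3 libraries, and many of photosystems, the Calvin cycle and the pollen coat were lower. Of 20672 genes tested with edgeR's quasi-likelihood test at a Benjamini-Hochberg adjusted p of 0.05, 2871 (13.9%) were called higher and 2993 (14.5%) lower in rep3. The median absolute log2 fold change was 1.38 among the genes called higher and 1.26 among those called lower. Changes of 2-fold or more numbered 1969 upward and 2000 downward, and changes of 8-fold or more 717 upward and 378 downward. Against a log2 fold change of 1, glmTreat called 911 genes higher (4.41%) and 611 lower (2.96%). The 3 rep3 libraries lay entirely above the 6 others for 2752 of the genes called higher, and entirely below for 2723 of those called lower; over all genes tested, 18.9% lay above and 17.3% below. At 0 counts in all 6 rep1 and rep2 libraries but present in all 3 rep3 libraries were 265 genes, and 72 genes showed the opposite.

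The split between directions depended on the scaling. With library totals in place of TMM, the median log2 fold change over all genes was 0.36, against -0.00 under TMM, and the calls were 5271 higher and 1703 lower, so that 75.6% of calls were higher, against 49% under TMM. Changes below are relative to the median of all genes. The counts also depended on each rep3 library: 1189 genes were called higher and 1083 lower without the WT library, 1224 and 1034 without the atrzf1 library, and 1578 and 1559 without the pca31 library.

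Most calls had the same sign in every genotype. Of the genes called higher, 2867 differed in that direction in WT, atrzf1 and pca31, and of those called lower 2961 did. The calls were made on these same libraries, so this agreement was largely built in and is no separate support. The edgeR test of a difference between genotypes in the rep3 change called 0 genes, with 191 at an unadjusted p under 0.05; limma-voom called 0 and DESeq2 called 4. In simulated data of this size that edgeR test recovered 0 of 100 genes changed 4-fold in 1 genotype, so a count of 0 says little. The genes called by DESeq2, named after their values were seen, were LTP3 and LTP4, neighbouring genes for lipid transfer proteins that may exchange reads, AT3G02480 and AT1G13470. LTP4 was at 54.3 CPM in rep3 of WT, against 2.56 and 4.15 CPM in rep1 and rep2. In the mutants the order was turned round, with 8.96 CPM in rep3 of atrzf1 against 111 and 27.3 CPM, and 1.89 CPM in rep3 of pca31 against 56 and 121 CPM.

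**Figure D1:**
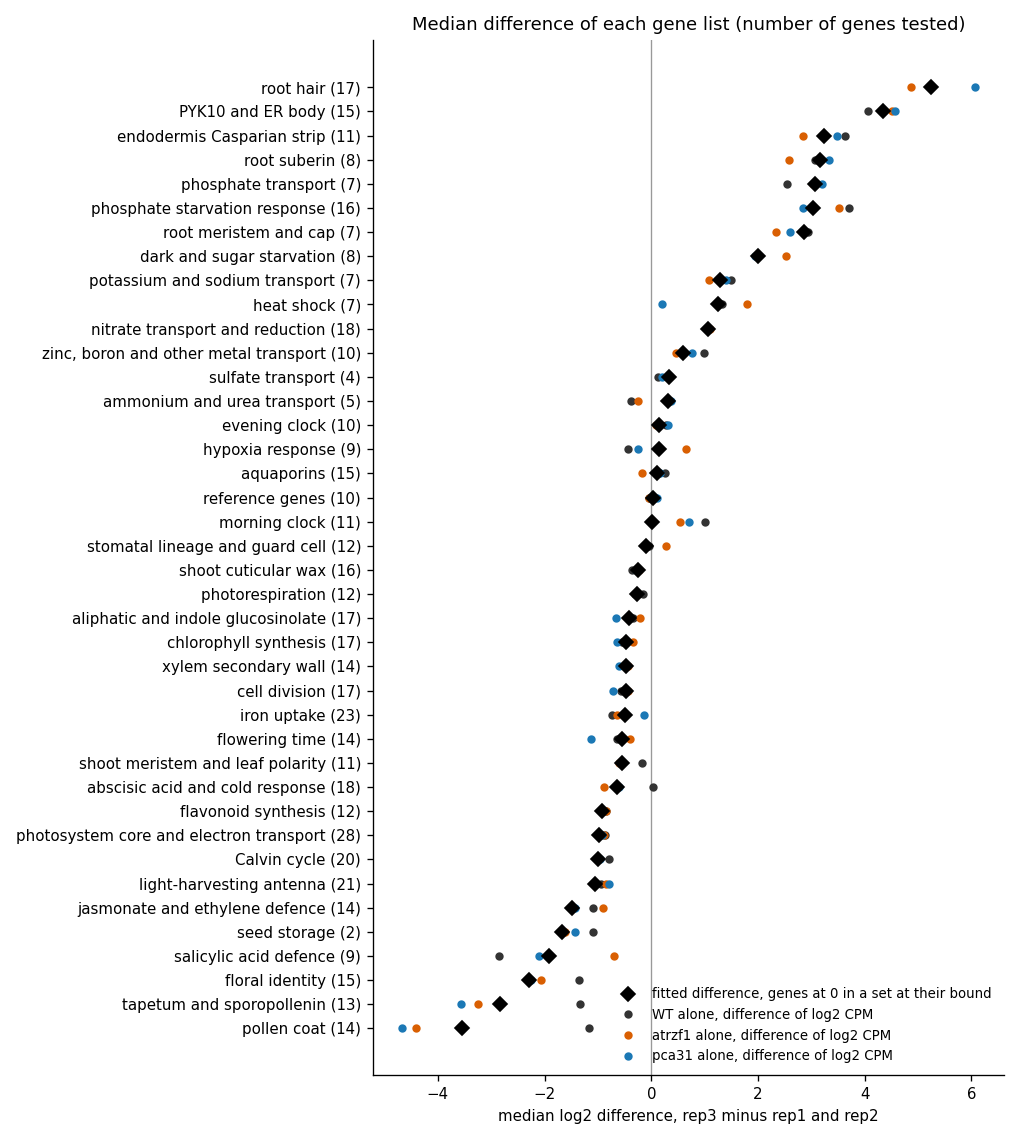
Median log2 difference, rep3 minus rep1 and rep2, of 40 gene lists (number of genes tested in brackets); black diamonds are fitted values with genes at 0 in a set placed at their bound, and coloured points are each genotype alone. Root hair (5.25), ER body, Casparian strip, suberin and phosphate lists lie at the right, and pollen coat (-3.55), tapetum and floral identity lists at the left, with WT nearer to 0 than the mutants in the flower lists.

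Gene lists were read by the number of members called and by their median, beside a median of -0.00 for all genes tested. Over all genes tested 13.9% were called higher and 14.5% lower, and list counts near these shares say little about a list. A gene passed the filter on low counts if as many libraries as the smaller set holds, 3, reached the minimum, in whichever set they lay. A member seen in 1 set alone thus passed through that set. Some, such as GRP16, passed through rep1 and rep2 of the mutants alone, where they were high. Where a set had 0 counts in all of its libraries, a fold is given as a bound, from a floor of 3 counts in each library of that set (0.0866 to 0.131 CPM). List members named beyond the rule in the methods were picked after their values were seen.

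Root hair genes had the highest median of the 40 lists. Of 18 members 17 were tested, 14 were called higher and 0 lower, with a median log2 fold change of 6.96, or 5.25 with the 6 members at 0 in all rep1 and rep2 libraries at their bound. Their summed level was 104, 66.2 and 117 CPM in rep3 of WT, atrzf1 and pca31, against a range of 1.63 to 4.66 CPM in the other libraries. The sets of libraries did not overlap. EXPA7, an expansin that loosens the wall of growing root hairs, had 6.76, 5.25 and 8.77 CPM in rep3 and 0 in all 6 others, at least 64.1-fold higher (edgeR adjusted p = 0.00114). COBL9, needed for polar growth of the hair, had 7.43, 4.63 and 7.77 CPM against at most 0.307 CPM (edgeR log2 fold change 6.78, adjusted p = 0.000551). The bHLH regulators of hair formation RHD6 and RSL4 were also seen in rep3 alone, at least 9.23-fold and 6.6-fold higher, at levels of 0.328 to 1.36 CPM. Not called were RSL2 (log2 0.07), LRX2 (1.17) and the NADPH oxidase RHD2 (1.84).

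The 10 largest rises over all genes included AT3G28550, AT3G54580, AT1G23720 and EXT10, annotated as extensins or extensin-like, which are hydroxyproline-rich proteins of the cell wall, and RHS13, annotated as root hair specific. AT3G28550 had 174, 135 and 206 CPM in rep3 and 0 in all 6 others, at least 1588-fold higher (edgeR adjusted p = 0.000117). The bounds of AT3G54580, RHS13, AT1G23720 and EXT10 were 323, 294, 265 and 189-fold. Repeats shared by the extensins may have split their reads. The cytochrome P450 CYP705A5, the peroxidase AT3G01190 and the pectin methylesterase inhibitor-like AT5G62340 were likewise at 0 in rep1 and rep2, at least 214, 204 and 167-fold higher in rep3. AT2G05510, a glycine-rich protein gene, reached 611, 584 and 1323 CPM in rep3 and 0 to 0.347 CPM in the others. IPS1, the remaining gene, belongs to phosphate starvation.

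Genes of the endodermal barrier were higher as well. CASP1 (AT2G36100, TAIR10.1 chromosome 2, 15159591 to 15160799, minus strand) encodes a scaffold protein of the Casparian strip. It had 53.4, 28.3 and 36.9 CPM in rep3, against a lowest, median and highest of 2.93, 4.1 and 5.79 CPM in rep1 and rep2 (edgeR log2 fold change 3.24 ± 0.20 SE, adjusted p = 1.7e-05). The lowest rep3 library was thus well above the highest of the others. CASP2, its paralogue, had 8.14, 3.9 and 5.18 CPM in rep3 and 3 counts in all in the others, a ratio of 321 with an exact 95% interval of 109 to 1562. MYB36, the transcription factor that switches on Casparian strip genes, had 5.46, 2.55 and 4.48 CPM against at most 0.249 CPM, and ESB1, a dirigent-like protein of the strip, 77.5, 45.8 and 68.8 CPM against 8.75 to 14.5 CPM. SGN1, a kinase of the same barrier pathway, rose by 6.25 ± 0.65 (edgeR adjusted p = 0.000272). In all, 7 of 11 tested members were called higher and 0 lower, with a median of 3.24. The 4 not called were SHR (log2 -0.61) and SCR (-0.58), which pattern the endodermis and are also used in leaves, the receptor kinase SGN3 (-0.33) and the peroxidase PER64 (1.06).

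Of 8 suberin genes 5 were called higher, with a median of 3.17. FAR1, a fatty acid reductase, had 19.7, 19.1 and 20.3 CPM in rep3 against 2.73, 6.24 and 8.21 CPM as the lowest, median and highest of the others. The hydroxylase CYP86A1 rose by 3.91 and the reductases FAR4 and FAR5 by 5.39 and 3.73. Root meristem and root cap genes were near the limit of detection: of 13 members 7 were tested and 5 called higher. PIN2, an auxin efflux carrier of the root tip, had 4.52, 4.19 and 9.33 CPM in rep3 against 0 to 0.394 CPM in the others (edgeR log2 fold change 5.38 ± 0.72, adjusted p = 0.000988). PLT1, a stem cell regulator of the root tip, was in rep3 alone at 0.583 to 0.996 CPM, at least 7.78-fold higher. The summed level of this list overlapped between the sets, at 88.4, 109 and 117 CPM in rep3 against 54.9 to 104 CPM, most of it from the auxin importer AUX1, which is also used in shoots and was not called (log2 0.13).

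**Figure D2:**
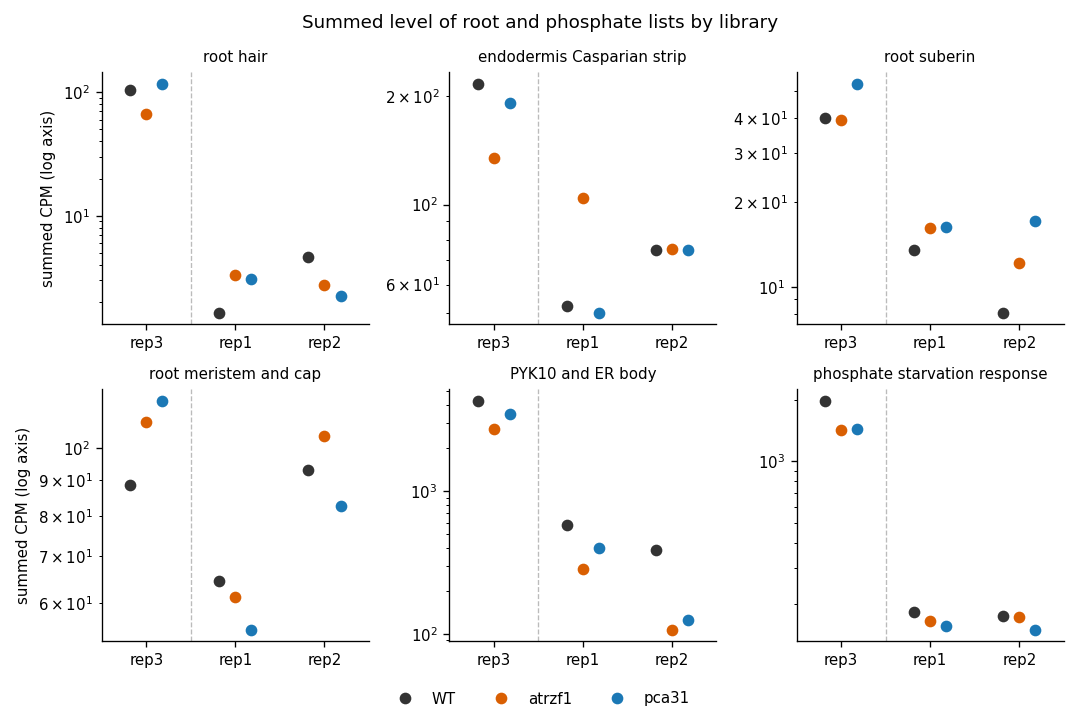
Summed level of 5 root lists and the phosphate starvation list in each library, in CPM on log axes, with rep3 at the left of rep1 and rep2 and 1 point per genotype. The sets do not overlap in 5 panels, and they do in root meristem and cap, where rep3 had 88.4 to 117 CPM and the others up to 104 CPM.

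PYK10 (AT3G09260, TAIR10.1 chromosome 3, 2840477 to 2843781, minus strand) is a beta-glucosidase stored in ER bodies, defence compartments that are abundant in Arabidopsis roots. It had 1847, 1341 and 1651 CPM in rep3, against a lowest, median and highest of 17.3, 58.7 and 153 CPM in the others (edgeR log2 fold change 4.80 ± 0.50, adjusted p = 0.00028). WT rep1 was the highest of these 6 and far below the lowest rep3 library. Its list moved with it: 14 of 15 members were called higher, with a median of 4.35. BGLU21 and BGLU22, near-identical beta-glucosidases whose reads may be shared, had 51.7 to 118 CPM and 64.5 to 149 CPM in rep3, against at most 0.0711 and 0.498 CPM. NAI2, required to form ER bodies, had 144, 90.6 and 129 CPM in rep3 and 1.71 to 8.1 CPM in the others. The regulator NAI1 rose by 2.19. JAL23, a jacalin-related lectin, was the 1 member called lower, with 3.14, 2.44 and 1.43 CPM against 20.4 to 167 CPM (edgeR log2 fold change -4.84 ± 0.78, adjusted p = 0.00233).

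PYK10 and CASP1 overlap AT3G09250 and AT2G36090 on the opposite strand, by 138 and 49 bases, so some of their reads may be shared. Over the 5 root lists, 45 of 58 tested members (66 in all) were called higher and 1 lower, with a median of 3.82, or 3.50 with bounds. Within each genotype alone the median difference was 3.78 in WT, 3.41 in atrzf1 and 4.0 in pca31. These lists took 0.539%, 0.36% and 0.493% of counts in rep3 of WT, atrzf1 and pca31, against 0.0248% to 0.0646% in the others. The count called higher was 37 to 46 when any library was left out. All samples bear the label of whole seedlings. In rep1 and rep2 the marker PHT1;1 was at 0 to 0.178 CPM, whereas the markers PYK10 and CASP1 were present in every library, at 17.3 to 153 and 2.93 to 5.79 CPM. In RNA from whole samples, more cells of a type and more RNA per cell cannot be told apart. The number of root cells in the samples was not measured.

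Phosphate genes rose with the root genes. PHT1;1 (AT5G43350, TAIR10.1 chromosome 5, 17399769 to 17402158, minus strand) is a main phosphate importer of the root surface. It had 67.1, 51.5 and 79.3 CPM in rep3, 0.178 CPM in WT rep1 and 0 in the other 5 libraries (edgeR log2 fold change 10.99 ± 0.62, adjusted p = 9.9e-06). Its near-identical neighbour PHT1;2 may share reads and had 0.236 to 0.332 CPM in rep3 and 0 in the others. PHT1;4 had 17.5, 15.8 and 31.6 CPM against 1.01 to 1.75 CPM (3.97 ± 0.27, edgeR adjusted p = 2.65e-05). PHO1, which loads phosphate into the xylem, had 11.5, 10.8 and 14.2 CPM against 2.93 to 6.36 CPM (1.51 ± 0.27, edgeR adjusted p = 0.00398). Of 12 members of the transport list 7 were tested and 5 called higher. PHO1;H1 and PHF1, which helps PHT1 proteins leave the ER, were not called (log2 -0.51 and -0.09).

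The phosphate starvation list, genes that plants switch on when phosphate runs low, had 13 of 16 members called higher and 1 lower, with a median of 3.04. IPS1, a non-coding RNA that sequesters miR399, had 139.8, 83.2 and 69.7 CPM in rep3 and 3 counts in all in rep1 and rep2, a ratio of 5423 with an exact 95% interval of 1855 to 26304. Its homologue AT4 was the most abundant member, at 1346, 833 and 990.2 CPM in rep3, against a lowest, median and highest of 11, 25.6 and 56.3 CPM (edgeR log2 fold change 5.19 ± 0.52, adjusted p = 0.000225). The sets were far apart for both. The phosphatases PS2 and PECP1 rose by 4.48 ± 0.28 and 6.39 ± 0.53, and the phosphate sensors SPX1 and SPX3 by 3.49 and 4.45. SRG3, a glycerophosphodiesterase that frees phosphate from lipids, had 75.5, 67.4 and 64.3 CPM against 6.33 to 11.9 CPM. PHO2, the ubiquitin-conjugating enzyme that lowers phosphate uptake, fell by 0.92 (edgeR adjusted p = 0.0334), and SPX2 was not called (log2 -0.03).

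A known phosphate motif stood near the start of several of these genes. P1BS (GNATATNC, which reads the same on both strands) is bound by PHR1, the main transcription factor of phosphate starvation. It was searched from 250 bases before to 50 after the gene start of RefSeq's TAIR10.1 annotation and found in 8 of 16 promoters of the list (50%), against 6.34% of the 20614 tested genes with a promoter. Among genes called higher the share was 7.54%, and among genes called lower 6%. The holders were SPX1, SPX3, AT4, PS2, PLDP2, RNS1 and SRG3, all called higher, and MGD2, which was not (log2 0.80). In other lists P1BS stood in 1 of 7 phosphate transport promoters (14.3%), 1 of 17 root hair promoters (5.88%) and 0 of 21 antenna promoters. A match is a description and shows no binding. The share in the phosphate starvation list follows from which genes were put in it and is no result about the rep3 libraries. For comparison, on either strand the G-box CACGTG stood in 8.28% of promoters of genes called higher and 8.65% of those called lower. Its share was 8.68% over all tested genes and 6.25% in the phosphate starvation list. In the same order the shares of the I-box GATAAG were 15.5%, 16.5%, 15% and 6.25%. Those of the evening element AAATATCT were 5.59%, 6.53%, 5.93% and 6.25%. The evening element shares the letters ATAT with P1BS.
The 250 bases before the gene start are shown for 4 holders, to let the motif be read in its place, with P1BS in capitals. They lie at chr5:894332-894581 (AT4, plus strand), chr1:27466349-27466598 (PS2, minus strand), chr2:18606160-18606409 (SPX3, plus strand) and chr3:350011-350260 (SRG3, minus strand). The sequences of SPX3 and SRG3 each hold the motif more than once.
AT4: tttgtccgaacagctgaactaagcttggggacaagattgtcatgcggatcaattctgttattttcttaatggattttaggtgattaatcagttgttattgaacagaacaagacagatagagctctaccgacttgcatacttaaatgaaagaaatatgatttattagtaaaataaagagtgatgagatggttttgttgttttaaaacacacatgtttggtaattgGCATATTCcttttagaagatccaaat
PS2: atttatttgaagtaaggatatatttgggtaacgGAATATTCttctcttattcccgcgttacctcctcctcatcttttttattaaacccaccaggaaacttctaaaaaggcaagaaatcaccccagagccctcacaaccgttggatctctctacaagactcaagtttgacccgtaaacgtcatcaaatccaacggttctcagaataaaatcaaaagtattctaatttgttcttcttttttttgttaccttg
SPX3: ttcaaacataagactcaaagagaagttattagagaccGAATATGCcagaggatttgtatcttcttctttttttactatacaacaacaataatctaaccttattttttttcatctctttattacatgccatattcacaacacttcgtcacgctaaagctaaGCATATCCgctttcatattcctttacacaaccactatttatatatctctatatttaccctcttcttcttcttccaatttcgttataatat
SRG3: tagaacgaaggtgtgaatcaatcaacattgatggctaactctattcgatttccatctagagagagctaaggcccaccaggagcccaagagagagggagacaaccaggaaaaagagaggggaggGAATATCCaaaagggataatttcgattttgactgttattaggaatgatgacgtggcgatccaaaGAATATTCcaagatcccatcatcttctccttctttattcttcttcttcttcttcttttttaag

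Nitrate genes changed less and in both directions. Of 22 members 18 were tested, 9 called higher and 1 lower, with a median of 1.06. NRT1.5, which loads nitrate into root xylem, had 80.8, 35.4 and 66.2 CPM in rep3, against 2.22, 3.68 and 5.31 CPM as the lowest, median and highest of the others (edgeR log2 fold change 4.09 ± 0.37, adjusted p = 0.000117). NIA1, a nitrate reductase, had 188, 207 and 182 CPM against 18.3 to 44.7 CPM (2.81 ± 0.28, edgeR adjusted p = 0.000203). The anion channel SLAH3 and the transporter NPF2.5 rose by 2.49 ± 0.41 and 3.92 ± 0.49. NRT1.1, the dual-affinity importer and sensor, was not called (log2 0.52), and the high-affinity importers NRT2.1, NRT2.2, NRT2.4 and NRT2.5 were too low to test in either set. Of 5 tested ammonium and urea genes 1 was called higher, 1 lower and 3 were not called, beside 13.9% higher and 14.5% lower over all genes. Both calls were ammonium importers. AMT1;3 had 5.15, 7.18 and 9 CPM in rep3 against 0 to 0.161 CPM in the others (6.95 ± 0.54, edgeR adjusted p = 5.06e-05). AMT1;1 had 28.9, 38.2 and 31.2 CPM in rep3, against 51.9 to 56.5 CPM in rep1 and 195 to 329.5 CPM in rep2 (-2.34 ± 0.75, edgeR adjusted p = 0.0438). Its antisense neighbour AT4G13505 was counted too, and the strand used in counting is not given.

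Among other ions, 3 of 7 tested potassium and sodium genes were called higher and 0 lower. Of 10 zinc, boron and other metal genes 3 were called higher and 2 lower, and of 4 tested sulfate genes 1 and 1. The shares over all genes were 13.9% and 14.5%. The potassium channel AKT1 had 22.2, 15.6 and 16.9 CPM in rep3 against 5.39 to 9.74 CPM (edgeR log2 fold change 1.28 ± 0.21, adjusted p = 0.00272). The cation exchanger CHX17 rose by 4.38 ± 0.45. The zinc transporter ZIP2 had 30.9, 21.8 and 40.8 CPM against 0.0676 to 0.701 CPM (6.53 ± 0.48, edgeR adjusted p = 3.89e-05), while ZIP4, a gene of zinc deficiency, fell by 1.37 ± 0.29. SULTR2;1, a sulfate transporter of vascular tissue, rose by 1.28 ± 0.33 and SULTR2;2 fell by 0.96 ± 0.21. Aquaporins showed no common direction, with 5 of 15 called higher, 3 lower and a median of 0.11. TIP2;3, a water channel of root vacuoles, had 145, 59.8 and 66.9 CPM in rep3 and 0 to 0.394 CPM in the others (9.46 ± 0.60, edgeR adjusted p = 1.77e-05). TIP1;2 was the most abundant gene called higher anywhere, at 10473, 9589 and 7879 CPM against 4132 to 6587 CPM (0.71 ± 0.18, edgeR adjusted p = 0.0179), and its paralogue TIP1;1 fell by 1.28 ± 0.27.

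Iron genes held calls in both directions. Of 27 members 23 were tested, 7 called higher and 10 lower, with a median of -0.49, and the summed level overlapped between the sets. The peptides IMA1 and IMA3, which signal iron deficiency, were nearly absent from rep3: IMA3 had 0.118, 0.219 and 0 CPM, against a lowest, median and highest of 47.7, 79 and 206 CPM in the others (edgeR log2 fold change -9.79 ± 0.90, adjusted p = 0.000139). IMA3 overlaps AT2G30760 on the opposite strand, which was itself at 0 in rep3, and without the strand of counting their reads cannot be told apart. IMA1 had 0, 0.182 and 0 CPM in rep3 against 15.1 to 104 CPM. The iron-deficiency regulators BHLH38, BHLH39, BHLH100 and BHLH101 were all called lower, BHLH38 and BHLH101 by at least 42.2-fold and 15.7-fold. OPT3, a phloem iron transporter, and the ubiquitin ligase BTS fell by 3.01 and 1.44. In the other direction, FER1, the ferritin that stores iron, had 289.7, 220.4 and 203 CPM in rep3 against 27.6 to 42.3 CPM (2.75, edgeR adjusted p = 3.16e-05). Genes for making and exporting coumarins that mobilise soil iron, F6'H1 and PDR9, rose by 3.79 and 4.63, and the citrate exporter FRD3 by 4.49. The root iron importer IRT1 was too low to test in either set, and the reductase FRO2 was not called (log2 -0.59).

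Over the phosphate transport, nitrate, ammonium, sulfate, potassium, iron and metal lists, 29 of 74 tested members (90 in all) were called higher and 15 lower. Over all genes tested 13.9% were called higher and 14.5% lower. The median of these lists was 0.61. Their summed level overlapped between the sets, at 2636, 2481 and 2508 CPM in rep3 of WT, atrzf1 and pca31 against 1263 to 2559.8 CPM. With a requirement of at least 5 CPM on average the count called higher was 16.

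**Figure D3:**
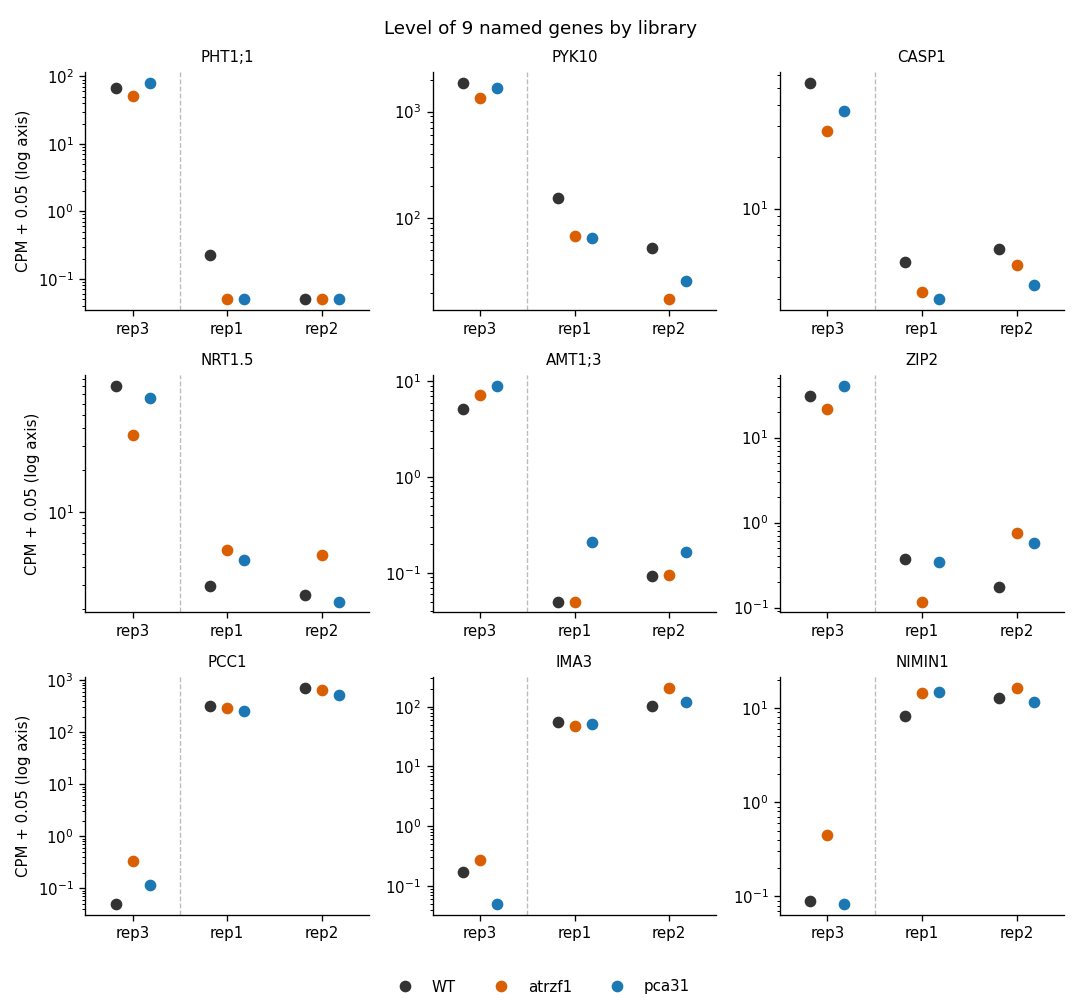
Level of 9 genes in each library, in CPM + 0.05 on log axes, with rep3 at the left and 1 point per genotype. The sets do not overlap for any of them: PHT1;1, PYK10, CASP1, NRT1.5, AMT1;3 and ZIP2 are higher in rep3, and PCC1, IMA3 and NIMIN1 lower.

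Photosynthesis transcripts took a smaller share of the rep3 libraries, 13.8%, 13.9% and 12.1% of counts in WT, atrzf1 and pca31, against 15.5% to 24.1% in the others. Of 98 members of 5 lists 50 were called lower and 4 higher, with a median of -0.87. The changes were modest next to the root genes: glmTreat at a log2 fold change of 1 called 6 of them lower. The count was 21, 20 and 22 without the rep3 library of WT, atrzf1 and pca31, and 29 with library totals, where the median was -0.51 against 0.36 for all genes.

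Photosystem and electron transport genes had 21 of 28 called lower and 0 higher, with a median of -0.97; all 28 fitted values were below 0. Their share of counts was 5.23%, 5.56% and 4.83% in rep3, against 6.29% to 8.09% in the others. PSAL, a photosystem I subunit, had 1615, 1800.4 and 1504 CPM in rep3 against 2930.4, 4157 and 5207 CPM as the lowest, median and highest of the others (edgeR log2 fold change -1.34 ± 0.20, adjusted p = 0.00166). PSBQ1, a subunit of the oxygen-evolving complex, had 206, 289.7 and 255 CPM against 771 to 1551 CPM (-2.01 ± 0.27, edgeR adjusted p = 0.000995). PSBR, the most abundant member, fell by 0.66 ± 0.20.

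The Calvin cycle, which fixes carbon dioxide, had 14 of 20 genes called lower and 1 higher, with a median of -1.0. RBCS1A, a Rubisco small subunit, had 2925, 3750.3 and 3192 CPM in rep3 against 7621, 9986 and 15988 CPM as the lowest, median and highest of the others (edgeR log2 fold change -1.73 ± 0.26, adjusted p = 0.00167). RBCS1B and RBCS3B fell by 2.23 ± 0.50 and 1.09 ± 0.22, though RBCS genes are alike enough to exchange reads. GAPA2, a plastid glyceraldehyde phosphate dehydrogenase, had 1208, 1397 and 975 CPM against 2799 to 3659 CPM. RPE, a pentose phosphate epimerase, was called higher (log2 0.75).

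As a share of counts, antenna genes separated rep3 from rep1 but not from rep2. They took 5.79%, 5.11% and 4.51% of counts in rep3 of WT, atrzf1 and pca31, against 12%, 11.6% and 11.5% in rep1 and 6.44%, 5.21% and 4.38% in rep2. Of 21 members 8 were called lower and 0 higher, with a median of -1.05; against rep1 alone the median was -1.38 and against rep2 alone -0.30. LHCB1.3, an antenna protein of photosystem II, had 4614, 2783 and 2367 CPM in rep3 against 10782 to 19438 CPM in the others (edgeR log2 fold change -2.29 ± 0.22, adjusted p = 0.000159). LHCB1 copies may exchange reads. LHCB2.1 showed the other pattern, with 1743, 1231 and 919.9 CPM in rep3 inside the 130 to 5595 CPM of the others, and was not called. Chlorophyll synthesis behaved alike, with 5 of 17 called lower, 0 higher and a median of -0.47, at -0.87 against rep1 alone and -0.26 against rep2 alone. Photorespiration was mixed, with 3 of 12 called higher, 2 lower and a median of -0.27, which was 0.10 with library totals. CAT2, the leaf peroxisomal catalase, had 872, 587 and 534 CPM in rep3 against 273 to 286 CPM in rep1 and 78.7 to 89.4 CPM in rep2 (1.85 ± 0.49, edgeR adjusted p = 0.0224), while GLDT, of the glycine cleavage system, fell by 1.60 ± 0.24.

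**Figure D4:**
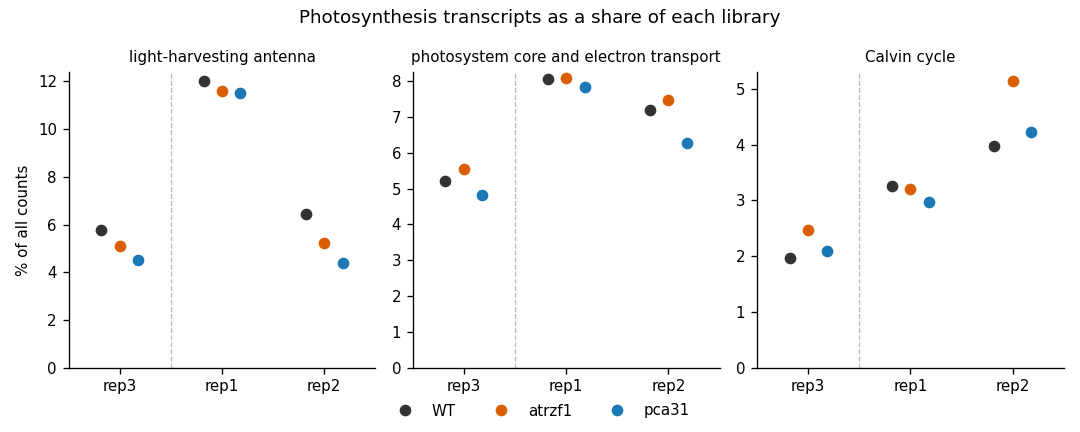
Share of all counts taken by antenna, photosystem and Calvin cycle genes in each library, in percent, with rep3 at the left and 1 point per genotype. Photosystem shares are 4.83% to 5.56% in rep3 and at least 6.29% in the others, whereas antenna shares of rep3 lie among those of rep2 and below the 11.5% to 12% of rep1.

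Daily rhythms are kept by morning and evening clock genes, and antenna and CAT2 transcripts are known to cycle with the day. The summed level of 11 morning genes was 228, 223 and 220.0 CPM in rep3, close to the 207, 223 and 191 CPM of rep1 and above rep2, which had at most 70.7 CPM. The median difference was 0.01 against both, -0.47 against rep1 alone and 1.65 against rep2 alone, and RVE4 was the 1 member called (log2 0.88 ± 0.17, edgeR adjusted p = 0.00623). GRP7, the most abundant of 10 evening genes, was not called (log2 -0.13, edgeR adjusted p = 0.833), nor was ELF4 (-0.73, 0.31). GRP7 had 8475, 9962 and 9279 CPM in rep3, against 5443 to 7016 CPM in rep1 and 11111 to 18368 CPM in rep2. The part of harvest time in any result was not tested.

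Flower transcripts were lower in rep3, with the larger differences in atrzf1 and pca31. Of 42 tested members (48 in all) of 3 flower lists 27 were called lower and 0 higher, with a median of -3.72, or -2.92 with bounds. Within WT alone the median difference was -1.34, against -3.23 in atrzf1 and -3.64 in pca31. The count was 13 without the atrzf1 rep3 library and 16 without that of pca31, 7 without the pca31 genotype, and 5 among members with at least 5 CPM on average.

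Pollen coat genes fell most, with 12 of 14 called lower and a median of -7.71, or -3.55 with the 7 members at 0 in all rep3 libraries at their bound. Their sum was 6.09, 11.2 and 9.83 CPM in rep3 of WT, atrzf1 and pca31. Libraries rep1 and rep2 of WT had 18.5 and 21.5 CPM, those of atrzf1 148 and 89.4 CPM, and those of pca31 182 and 207 CPM. The WT libraries of both sets were thus low. GRP17, a glycine-rich oleosin of the pollen coat, was at 0 in all rep3 libraries, at 0 and 2.22 CPM in WT rep1 and rep2, and at 23 to 98.3 CPM in rep1 and rep2 of the mutants. Averaged over the 6 libraries it was at least 442-fold lower in rep3 (edgeR adjusted p = 0.00381), and GRP16 and the lipase EXL4 at least 81.4-fold and 46.1-fold lower. In WT rep1 and rep2 GRP16 was at 0, and EXL4 was at 0 and 0.168 CPM. The bounds of these genes therefore came almost wholly from the mutants, and WT gave next to no difference. Tapetum and sporopollenin genes had 7 of 13 called lower, among them the exine genes MS2 and CYP703A2, by at least 12.8-fold and 7.12-fold. Their summed level overlapped between the sets, at 19.8 to 21.6 CPM in rep3 against 18.1 to 50.7 CPM, with WT rep1 lowest. Against rep1 alone the median was -0.08, and against rep2 alone -4.46. AMS, a tapetum regulator, was not called (log2 0.54).

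Floral identity genes, MADS-box factors and their partners that specify flower organs, had 8 of 15 called lower and 0 higher, with a median of -2.29. FUL had 0.983, 0.729 and 1.06 CPM in rep3, against 1.6, 4.68 and 11.8 CPM as the lowest, median and highest of the others (edgeR log2 fold change -2.63 ± 0.59, adjusted p = 0.0109). AP1, an early floral identity factor, was at 0, 0.255 and 0 CPM against 0.284 to 3.93 CPM. The carpel gene CRC was at 0 in all rep3 libraries, at least 24.9-fold lower. SEP3 (log2 0.59) and PI (-1.19) were not called. The summed level overlapped in WT, with 21.1 CPM in rep3 and 19.2 and 29.9 CPM in rep1 and rep2, whereas rep3 of atrzf1 and pca31 had 26.7 and 24.7 CPM against 59.4 to 87.2 CPM. Of 14 flowering-time genes 5 were called lower and 1 higher. MAF5, a repressor of flowering related to FLC, had 1.77, 0.109 and 0.199 CPM in rep3 against 1.82 to 13.6 CPM (-3.71 ± 0.55, edgeR adjusted p = 0.00156). MAF4 of the same family fell by 1.86 ± 0.57, and MAF2, another repressor of it, rose by 0.91 ± 0.23. SPL9 and AGL24, promoters of flowering, fell by 2.25 ± 0.26 and 1.62 ± 0.27, and the floral inducer FT was not called (log2 1.18). SPL3 fell by 1.39 ± 0.22, but an antisense RNA covers its locus with about as many counts.

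**Figure D5:**
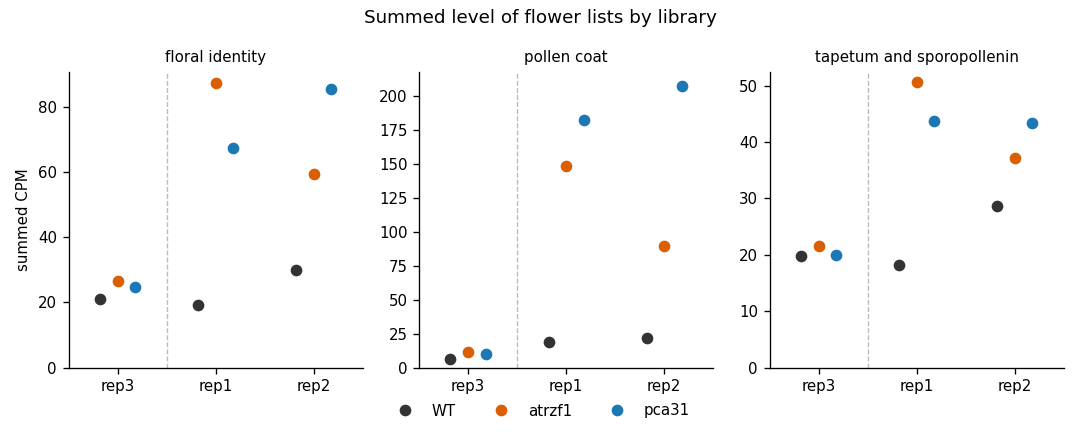
Summed level of floral identity, pollen coat and tapetum genes in each library, in CPM, with rep3 at the left and 1 point per genotype. Pollen coat genes reach 89.4 to 207 CPM in rep1 and rep2 of atrzf1 and pca31, while rep3 libraries lie at 6.09 to 11.2 CPM and WT rep1 and rep2 at 18.5 and 21.5 CPM.

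Of the other shoot lists, the stomatal, cell division and wax lists held calls in both directions, and the shoot meristem and xylem lists held lower calls alone. Stomatal genes had 2 of 12 called higher and 2 lower, shares near those over all genes. Their median was -0.10 and changed sign in several alternative fits. KAT1, a potassium channel of guard cells, had 15.6, 13.4 and 13.4 CPM in rep3 against 1.53 to 7.5 CPM (edgeR log2 fold change 1.56 ± 0.48, adjusted p = 0.0373), and EPF2, a peptide that limits stomatal number, fell by 1.56 ± 0.41. The shoot meristem and leaf polarity list had 2 of 11 called lower and 0 higher, a share near the 14.5% called lower over all genes. STM, which maintains the shoot meristem, had 5.23, 7.58 and 6.51 CPM against 11.7, 23.4 and 33.5 CPM as the lowest, median and highest of the others (-1.85 ± 0.30, edgeR adjusted p = 0.00238). Of 17 cell division genes 6 were called lower and 1 higher: the ribonucleotide reductase gene TSO2 and the replication clamp PCNA1 fell by 2.18 ± 0.29 and 1.61 ± 0.22, and the mitotic cyclin CYCB1;1 rose by 1.06 ± 0.30. Xylem wall genes had 5 of 14 called lower and 0 higher, with FLA12 at 9.71, 11.3 and 11.4 CPM against 38.6 to 112 CPM. Wax genes were split, 3 of 16 higher and 4 lower. MAH1, a wax hydroxylase of stems, was at 0 in rep3, at 0.32 and 0.504 CPM in WT rep1 and rep2 and at 12.1 to 58.8 CPM in the mutants, the pattern of the pollen coat genes. The storage protein and oil body list was near 0 throughout, with 2 of 10 members tested.

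Several defence and cold-response transcripts were lower in rep3, and some heat shock transcripts were higher. PCC1, a gene of pathogen response and the clock, had 0, 0.291 and 0.0664 CPM in rep3 against a lowest, median and highest of 261, 423 and 709 CPM (edgeR log2 fold change -11.88 ± 0.85, adjusted p = 3.49e-05). Salicylic acid genes had 4 of 9 called lower and 0 higher. NIMIN1, a partner of the salicylic acid receptor NPR1, had 0.0393, 0.401 and 0.0332 CPM against 8.24 to 16.3 CPM (-6.47 ± 0.56, edgeR adjusted p = 0.000102), and the regulator WRKY70 had at most 24.3 CPM against 99 to 245 CPM. PR1 was not called (log2 -3.04). Jasmonate genes had 6 of 14 called lower and 0 higher, with LOX2, the lipoxygenase of jasmonate synthesis, at 192, 116 and 45.9 CPM against 429, 566 and 1155 CPM as the lowest, median and highest of the others. Cold-responsive KIN2 had 545, 321 and 148 CPM against 1809 to 3982 CPM (-3.04 ± 0.37, edgeR adjusted p = 0.000612). In its list 7 of 18 were called lower, and RD29B rose by 3.43 ± 0.82, at 21.6 CPM in WT but 3.24 and 1.2 CPM in atrzf1 and pca31 among rep3 libraries. Heat shock genes had 2 of 7 called higher and 1 lower, with a median of 1.25, and their sum was 132, 86 and 104 CPM in rep3 against 19.1 to 66.6 CPM. HSP90.1, a chaperone, had 67.7, 37.6 and 53.4 CPM against 6.53 to 21 CPM (1.88 ± 0.37, edgeR adjusted p = 0.00653); without WT rep3 it was not called (1.76). Hypoxia genes had 2 of 9 called higher and 2 lower. Beside the 13.9% called higher and 14.5% lower over all genes, so few calls in the heat shock and hypoxia lists say little.

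Flavonoid genes had 6 of 12 called lower and 0 higher, with a median of -0.93. The early enzymes CHS, CHI and F3H were not called (log2 -0.52, -0.54 and -0.42), and MYB111, a regulator of flavonol synthesis, fell by 1.59 ± 0.37. The late enzymes DFR and LDOX, which make anthocyanin precursors, had 0 to 0.236 and 0.133 to 0.432 CPM in rep3, against 6 to 12.9 and 6.42 to 18.7 CPM (edgeR log2 fold changes -5.97 ± 0.60 and -5.35 ± 0.39, adjusted p = 0.000225 and 4.1e-05). MYB75, which activates them, fell by 3.88 ± 1.01. Genes of darkness and sugar shortage went the other way, with 5 of 8 called higher, 0 lower and a median of 2.01. SEN1 had 523, 442 and 524 CPM in rep3 against 12.9 to 61.1 CPM (3.6 ± 0.41, edgeR adjusted p = 0.000439), and ASN1, an asparagine synthetase, 161, 164 and 198 CPM against 14.5 to 46.5 CPM. Glucosinolate genes had 4 of 17 called lower and 1 higher, with a median of -0.41. The myrosinase TGG2 fell by 2.09 ± 0.29, and CYP79F2, an enzyme of aliphatic glucosinolate synthesis, rose by 2.58 ± 0.44, with 20.4 ± 2.55 CPM in rep3 (SD, n = 3) against 3.41 ± 1.86 CPM (SD, n = 6). Of 10 reference genes 1 was called, EF1A, at 379.8, 449 and 400.0 CPM against 739 to 1278 CPM (-1.25 ± 0.21, edgeR adjusted p = 0.00311), and their median was 0.03.

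The other large falls and the most abundant calls add single genes. At 0 in all rep3 libraries were AT1G27710, a glycine-rich protein gene (at least 293-fold lower), and CSLA01, a glucomannan synthase (at least 67.8-fold). AT5G37940, a zinc-binding dehydrogenase-like gene, had 1 count in rep3, a ratio of 2663 with an exact 95% interval of 478 to 105204, and like MAH1 was low in WT rep1 and rep2 (0.498 and 3.11 CPM) and at 18.6 to 58 CPM in the mutants. The defensin-like AT1G13609 and the metal-resistance gene PCR1 had at most 0.133 and 0.474 CPM in rep3 against 12.9 to 125 and 15.4 to 273 CPM, with rep2 above rep1 in each genotype. Among abundant genes, GRP9 had 4662, 4599 and 6122 CPM in rep3 against 443 to 1880.4 CPM (edgeR log2 fold change 2.42 ± 0.33, adjusted p = 0.001). FSD1, the iron superoxide dismutase of chloroplasts, rose by 1.12 ± 0.30. GRP3S rose by 1.07 ± 0.23 and LHCB1.5 fell by 1.04 ± 0.31, both with overlapping sets. GRP-3 had 8759, 7554 and 5623 CPM against 9418 to 35044 CPM (-1.37 ± 0.44, edgeR adjusted p = 0.0436). AT1G07590 rose by 1.73 ± 0.19, but it overlaps AT1G07600 on the same strand, so its counts may belong to either gene.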

How the data were processed

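Transcripts were counted in 9 Arabidopsis seedling libraries, 3 per genotype. The deposited files hold raw counts, whole numbers for 33323 identifiers in each library, of which 32835 matched RefSeq locus tags of TAIR10.1. Bowtie2, bedtools and TAIR10 are named, per the submitters' processing notes; the version of each, the strand and the annotation were not given in the sources used here. Near-identical or overlapping genes may therefore share reads. Every count column was mapped to a sample by its file.

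Counts were fitted in R 4.3.3 with edgeR 4.0.16: filterByExpr by set (minimum count 10, minimum total 15), TMM scaling, and the quasi-likelihood test (glmQLFit, glmQLFTest) of rep3 against rep1 and rep2 with genotype as a block, all 9 libraries entering. P-values were adjusted by Benjamini-Hochberg over all 20672 tested genes, with a threshold of 0.05. They treat libraries of the same number as independent, which a shared effect of that number would break. A second fit tested the genotype by rep3 interaction. Alternatives used DESeq2 1.42.0, limma 3.58.1 (voom), glmTreat, other scalings, filters and models, and left out each library or genotype. Errors of log2 fold changes are approximate standard errors, worked back from the test as the log2 fold change over the square root of the quasi-likelihood F. They are least certain for genes near 0 counts in a set. A floor of 3 counts stands for a count of 0, and exact 95% intervals are given for 1 to 3 counts; PCR copies are not independent molecules, so both cover counting error only. On simulated data the main fit recovered 80 of 100 genes changed 4-fold and 10 of 100 changed 2-fold, with 6 false calls among 20312 genes. The changed genes were drawn from well-counted genes, and the libraries were simulated without a shared effect of the replicate number. The recovery therefore does not cover genes of low counts. The false calls do not measure those of the real comparison.

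The libraries compared, the 40 lists (562 genes, 514 tested) and the motifs were chosen with earlier results of these data known, and lists were described, not tested. Genes were named by rule: the markers PHT1;1, PYK10 and CASP1; the 10 largest called changes in each direction with at least 5 CPM in the higher set and no overlap; per list up to 4 called members with at least 5 CPM, or 2 abundant members where none was called; up to 5 genes called different between genotypes; the 5 most abundant called genes in each direction; and AtRZF1. The values of 1 further list member are not reported here.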

Additional observations from a re-analysis of the deposited data

Results flagged for a closer look

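Dixon's criterion for 6 samples (0.625) was applied to the 6 rep1 and rep2 libraries. By it 1 library was flagged against the other 5 in 13 of 180 sets checked. Chance gives about 1 in 20 for normally spread values. In 3 sets it was a summed list: photosystem genes were lowest in pca31 rep2 (60065 CPM), wax genes lowest in WT rep1 (1320.3 CPM) and glucosinolate genes highest in pca31 rep1 (4917 CPM), with TGG2 at 2915 CPM in that library. WT rep1 was highest for PYK10 (153 CPM) and PHT1;1 (0.178 CPM), and WT rep2 for IPS1 (0.126 CPM). The atrzf1 rep1 library was highest for PER7 (0.135 CPM) and CASP2 (0.101 CPM), and atrzf1 rep2 for IMA1 (104 CPM) and AT2G30760 (49 CPM). EXPA18 was highest in pca31 rep1 (0.0644 CPM) and AT2G05510 in pca31 rep2 (0.347 CPM). For the root and phosphate genes among them the rep3 libraries were higher still. For PHT1;1, IPS1, EXPA18, PER7 and CASP2 the other 5 libraries were at 0, so a few counts sufficed for a flag. The chance rate does not apply to these genes.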

How the results depend on the processing

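Counts are given as higher and lower calls. They were 1310 and 1171 without the WT genotype, 1655 and 1484 without atrzf1, 1173 and 964 without pca31, 5271 and 1703 with library totals, 4871 and 4566 with the number as a 3-level term, and 911 and 611 with glmTreat. At a mean of at least 5 CPM 1910 were higher, and against rep2 alone 4949. Leaving out 1 library gave 1189 to 3201 higher and 1034 to 3244 lower calls. DESeq2 called 4 genes different between genotypes. The 45 root members called higher were 18 at 5 CPM; the 29 nutrient members were 16 at 5 CPM and 19 with glmTreat. The 50 photosynthesis members called lower were 21, 29 and 16 without WT, atrzf1 and pca31, 29 with library totals, 6 with glmTreat, 77 against rep1 alone, and 20 to 52 with 1 library left out. The 27 flower members called lower were 5 at 5 CPM, 14 without atrzf1, 7 without pca31, 10 against rep1 alone, and 13 to 27 with 1 library left out. The cause of these shifts was not tested. Fewer genes or libraries entered the filtered and reduced fits.

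Of 147 called named genes, 80 kept the call under every one of the 24 alternatives in which they were tested, and 0 changed sign. Some genes failed the filter in an alternative and were not tested there, such as GRP16 and EXL4 against rep1 alone or rep2 alone. Signs changed for genes that were not called: GRP7 was at 0.05 without WT, 0.25 with library totals, 0.63 against rep1 alone and -0.29 to 0.18 with 1 library left out (above 0 at 0.18, 0.06, 0.02 and 0.00). ELF4 was at 0.29 against rep1 alone. AtRZF1 was at 0.04 without atrzf1, 0.19 with library totals, 0.34 against rep1 alone, and -0.38 to 0.05 with 1 library left out (0.05 and 0.00 above 0). The medians of 10 of 40 lists changed sign somewhere; of the 19 lists with a median of at least 1 in size, 1 did, tapetum and sporopollenin, at 0.16 among members of at least 5 CPM. Depth limits genes below about 0.131 CPM, where a count of 0 cannot be told from 3. No paired analysis was possible because the replicate number is itself what was compared, and genotype already served as the block.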
